A study of Mus musculus with 16 samples.

Results

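Collagen genes were taken as all mouse genes whose symbol is Col, a number, the letter a and a number. The RefSeq gene table listed 44 such symbols, 43 of them had a probe on the array, and 34 were tested, out of 15521 genes tested in all. A gene was tested where a probe for it was well above its local background, as the scanner software judges it, on all 4 arrays of at least 1 group. The 34 genes were 11 fibrillar chains, 6 chains of basement membrane collagens and 17 others.

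The study compared mouse pluripotent stem cell lines of the 129/Ola strain, with 4 lines per group and 1 array per line, 16 arrays in all. The LIF serum lines came from embryos before implantation and were grown with leukaemia inhibitory factor (LIF) and serum, and the labels call their state naive. The mEpiSC lines, labelled primed, came from the epiblast at embryonic day 6.5 and were grown with activin A and bFGF. The 2i and 2iSB lines, both labelled ground state, came from embryos before implantation. The medium of the 2i lines held LIF and 2i, a pair of kinase inhibitors against MEK and glycogen synthase kinase. The medium of the 2iSB lines also held SB431542, an inhibitor of the type I receptors for activin and TGF-beta. Passage numbers ran from 17 to 28. The mEpiSC lines differed from the other groups in the stage of the embryo as well as in the medium, so these cannot be told apart. Lines within a group are the replicates, and where nothing says that they came from separate embryos, p-values measure only the spread between them.

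Collagens are proteins of the extracellular matrix in which 3 alpha chains wind into a triple helix. The fibrillar collagens, types I, II, III, V, XI, XXIV and XXVII here, assemble into banded fibrils, with types I and III making up most of the fibril mass of soft tissues and types V and XI helping to set fibril assembly and diameter. Type IV collagen forms the sheet-like network of basement membranes, where its most widespread form joins the products of Col4a1 and Col4a2, and type XVIII is a basement membrane proteoglycan that gives rise to endostatin. The remaining families form beaded microfibrils (type VI), sit on the surface of fibrils (types IX, XIV, XVI, XX and XXII), build short-chain networks (types VIII and X), anchor the epidermal basement membrane (type VII) or span the cell membrane (types XVII and XXIII). In the early embryo, parietal endoderm is known for making large amounts of type IV collagen and laminin.

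The arrays measured 1 colour, and a level below is log2 of the processed signal less the 75th percentile of its array, so that 0 is the signal of a bright probe and a step of 1 is 2-fold. Levels of different probes are not set against each other. The share of probes well above background was 51.6% to 63.9% per array, and 16 arrays limit the precision. The labelled states were checked against marker genes. All 6 general pluripotency markers, such as Pou5f1, Sox2 and Nanog, were well above background on all 16 arrays, and their mean level per array lay between 3.85 and 4.72. In mEpiSC, 3 of these 6 and 5 of 6 naive markers were lower than in LIF serum, and 2 of 5 primed epiblast markers were higher. Of all genes tested, 15.6% were lower and 18% higher in that comparison. Each ground state had 1 general marker higher and 2 lower than LIF serum, 2 of 6 naive markers higher and 3 of 5 primed epiblast markers lower. Of all genes tested, 6.26% (2i) and 6.82% (2iSB) were higher there, and 12.1% and 13.3% lower. Within LIF serum, arrays 1 and 2 carry line codes starting with LS and lie on slide 1, while arrays 3 and 4 carry codes starting with LSFF and lie on slide 2. The labels do not say what the codes mean, and code and slide cannot be told apart inside this group. These pairs of arrays stood apart in many collagens, so calls against LIF serum that were lost with 1 of the pairs alone are named with the gene.

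Of the 34 collagens tested, 14 were well above background on every array of all 4 groups. By contrast, 12 had passed through a single group, Col17a1 and Col6a4 through LIF serum and 10 through mEpiSC. Those 10 were Col4a4, Col4a5, Col5a2, Col8a1, Col8a2, Col10a1, Col11a1, Col11a2, Col24a1 and Col27a1. In all, 32 of the 34 were measured on all mEpiSC arrays. A gene that entered through 1 group alone was chosen in part for its level there. Its differences from that group, and their p-values, were therefore in part selected. The counts below describe these genes and are not support for a family-wide change. On single arrays, 32 of the 34 were above background on each mEpiSC array, all of slide 2. In LIF serum the counts were 30 and 33 on slide 1 and 24 and 27 on slide 2. They were 21 to 22 on slide 1 and 15 on slide 2 in 2i, and 21 to 24 and 18 in 2iSB. These slide 2 arrays of LIF serum, 2i and 2iSB also had the lowest shares of all probes above background, 51.6% to 55.4%. Among the 9 collagens with a probe that were not tested, Col9a1, Col9a3 and Col25a1 reached 3 of 4 arrays in a group. Col15a1 was above background on 1 array, and Col4a3, Col6a6, Col13a1, Col19a1 and Col28a1 were above background on none. The remaining symbol, Col12a1, had no probe that could be matched.

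Promoter sequences show how members of the family that moved in different ways are laid out next to their start sites. The RefSeq promoter table, of build GRCm38.p6, held 30 windows of 250 bases upstream of a start for tested collagens, and 3 short motifs were searched on both strands: CCAAT, the GC box GGGCGG and the TATA box TATAAA. The GC box was in 20 of the 30 windows (66.7%) against 32.7% of 32851 windows of all genes. CCAAT was in 11 (36.7%) against 33.8%, and TATAAA in 4 (13.3%) against 12.4%. By class, the GC box was in 6 of 8 fibrillar, 4 of 7 basement membrane and 10 of 15 other windows. These counts describe letters in a window, and no match says nothing about a factor. The windows printed here are those of Col1a2 and Col3a1, which fell most steeply among fibrillar chains from mEpiSC to 2i, of the neighbouring pair Col4a5 and Col4a6, of Col7a1, which was the most uniform within groups, and of Col9a2, which moved the opposite way. Each is given 5′ to 3′ on the strand of its gene and ends at the base before the start, and capitals mark the motifs on either strand:
Col1a2, chr6:4505368-4505617, plus strand: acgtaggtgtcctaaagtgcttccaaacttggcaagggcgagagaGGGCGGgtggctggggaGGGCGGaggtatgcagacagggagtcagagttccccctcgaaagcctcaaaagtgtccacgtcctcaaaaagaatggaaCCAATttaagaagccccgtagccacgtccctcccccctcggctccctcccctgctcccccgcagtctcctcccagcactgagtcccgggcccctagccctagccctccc
Col3a1, chr1:45311288-45311537, plus strand: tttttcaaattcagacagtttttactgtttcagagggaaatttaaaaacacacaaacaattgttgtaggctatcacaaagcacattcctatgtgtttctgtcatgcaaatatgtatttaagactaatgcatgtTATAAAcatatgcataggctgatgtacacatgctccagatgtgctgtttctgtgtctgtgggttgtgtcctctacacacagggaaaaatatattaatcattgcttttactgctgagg
Col4a5, chrX:141475169-141475418, plus strand: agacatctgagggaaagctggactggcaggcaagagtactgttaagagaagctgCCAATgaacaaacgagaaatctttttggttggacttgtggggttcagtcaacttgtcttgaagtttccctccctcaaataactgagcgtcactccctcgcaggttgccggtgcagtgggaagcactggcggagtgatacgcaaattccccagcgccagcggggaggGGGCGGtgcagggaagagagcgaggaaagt
Col4a6, chrX:141474077-141474326, minus strand: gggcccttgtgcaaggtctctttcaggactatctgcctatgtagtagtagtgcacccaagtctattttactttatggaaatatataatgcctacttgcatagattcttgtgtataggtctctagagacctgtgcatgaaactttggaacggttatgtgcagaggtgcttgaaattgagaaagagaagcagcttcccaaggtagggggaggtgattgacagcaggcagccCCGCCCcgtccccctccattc
Col7a1, chr9:108953336-108953585, plus strand: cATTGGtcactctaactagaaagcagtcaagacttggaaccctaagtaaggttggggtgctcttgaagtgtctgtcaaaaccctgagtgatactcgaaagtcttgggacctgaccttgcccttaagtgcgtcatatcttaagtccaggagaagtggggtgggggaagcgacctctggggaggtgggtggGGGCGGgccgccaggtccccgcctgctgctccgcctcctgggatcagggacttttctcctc
Col9a2, chr4:121039316-121039565, plus strand: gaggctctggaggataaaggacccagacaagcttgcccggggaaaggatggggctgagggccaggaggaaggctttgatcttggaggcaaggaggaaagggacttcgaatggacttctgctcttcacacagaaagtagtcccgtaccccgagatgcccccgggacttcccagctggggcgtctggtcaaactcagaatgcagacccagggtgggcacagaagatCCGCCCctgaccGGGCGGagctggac

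Positions count the first base of a match from the start, -1 being the base before it. The Col3a1 window held a TATAAA at -117 and neither of the other motifs, while the Col1a2 window held a CCAAT at -109 and GC boxes at -205 and -188. Col7a1 had a GC box at -61 and a CCAAT at -249, and Col9a2 had GC boxes at -26 and -14. Col4a5 had a GC box at -30 and a CCAAT at -196, and Col4a6 a GC box at -21. Col4a5 and Col4a6 lie head to head on chromosome X, with 1342 bases between their starts. Col4a1 and Col4a2 also lie head to head, on chromosome 8, so closely that 22 bases (chr8:11312805-11312826) are transcribed from both. In the same assembly's gene table, Col3a1 neighbours Col5a2, Col6a1 neighbours Col6a2, and Col6a4 neighbours Col6a5.

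By group mean, most collagens were highest in mEpiSC, intermediate in LIF serum and lowest in both ground state media. This order was in part set by the filter, since 10 of the 34 entered through mEpiSC alone. Of the 14 genes measured in all groups, 7 were called higher and 1 lower in mEpiSC than in LIF serum. The LIF serum mean also averages pairs of arrays that lay far apart in some genes. A gene was called changed at a Benjamini-Hochberg adjusted p under 0.05 over all 15521 genes and a difference of at least 2-fold, in a limma fit. Between mEpiSC and LIF serum, 21 of 34 collagens were called, 17 higher and 4 lower in mEpiSC, where 33.6% of all genes tested were called, 18% higher and 15.6% lower. In bulk RNA of this kind, fewer cells of a type and less RNA per cell cannot be told apart. In 2i against LIF serum, 22 were called and all 22 were lower, where 18.3% of all genes were called, 6.26% higher and 12.1% lower. For 2iSB against LIF serum the count was also 22, all lower, where 20.1% of all genes were called, 6.82% higher and 13.3% lower. Against mEpiSC, 2i had 25 called collagens, 22 lower and 3 higher, where 37.4% of all genes were called, 20.6% lower and 16.9% higher. The 2iSB group likewise had 25, 22 lower and 3 higher, where 36.4% of all genes were called, 20.1% lower and 16.2% higher. No collagen was called between 2iSB and 2i, where 0.0838% of all genes were called, 0.0129% higher and 0.0709% lower. Over the 6 comparisons, 17 genes were called in 5 and 8 genes in none. These comparisons share groups, so they are not independent of each other. Groups whose arrays did not overlap at all made up 22 of 34 collagens in mEpiSC against LIF serum (58.8% of all genes), 21 in 2i against LIF serum (27.2%) and 23 in 2iSB against LIF serum (29.6%). Against mEpiSC the counts were 26 in 2i (55.2%) and 25 in 2iSB (54.2%), and 1 between 2iSB and 2i (2.16%).

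The slides were then taken apart, since all mEpiSC arrays lie on slide 2 and the other groups span both. On slide 2 alone, mEpiSC had 21 collagens higher and 3 lower than LIF serum, that is, than its LSFF arrays, where 36.8% of all genes were called. In 2i against LIF serum, 17 were lower and none higher on slide 1 (10.9% of all genes called), and 19 were lower and 1 higher on slide 2 (27.1%). In 2iSB, 20 were lower and none higher on slide 1 (11.3%), and 20 were lower and 2 higher on slide 2 (32%). Against mEpiSC on slide 2, 25 collagens were lower and 2 higher in 2i (39.7%), and 24 lower and 2 higher in 2iSB (38.7%). Slide 2 holds 1 array of each ground state group, which was assumed to vary like the others. Of the calls against LIF serum, slide 1 alone lost those of Col2a1 (-0.83), Col8a2 (-1.73) and Col27a1 (-1.40) in 2i and of Col5a3 (-2.06 and -2.23) and Col18a1 (-0.95 and -1.55) in 2i and 2iSB. Slide 2 alone lost those of Col17a1 (-2.02 and -1.50) and Col10a1 in both ground states, of Col5a3 (-0.33) in 2i and of Col16a1 (-0.85) and Col18a1 (-0.51) in 2iSB, and those of Col4a2 (0.19) and Col6a5 (-0.94) in mEpiSC. With the slide as a block in the fit of all arrays, 21, 22, 22, 24 and 24 collagens were called in these comparisons (33.7%, 18.7%, 20.5%, 35.8% and 35.6% of all genes).

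**Figure D1:**
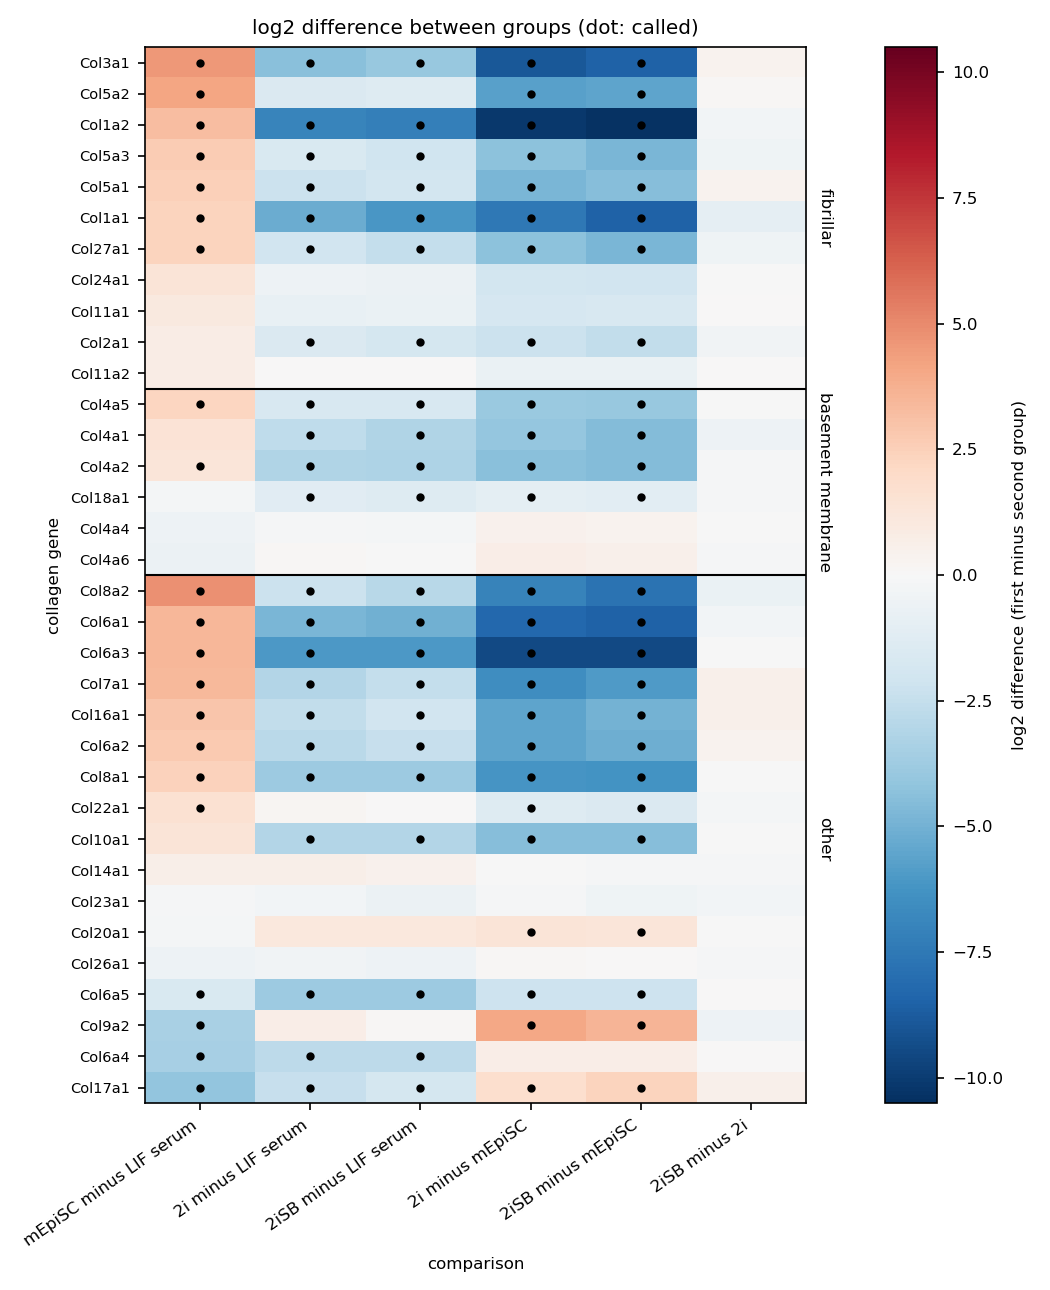
Heat map of the log2 difference (colour scale, first minus second group) for each of 34 collagens (rows, by class) in 6 comparisons (columns), with a dot where the difference was called. Most fibrillar rows are red in mEpiSC minus LIF serum and blue in the 4 ground state columns, the last column holds no dot, and a difference against a group that is not above background is the fitted value, not a bound.

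By class, fibrillar chains had 7 of 11 called higher in mEpiSC than in LIF serum, none lower, and a median log2 difference of 2.31. Basement membrane chains had 2 of 6 higher, none lower, and a median of 0.53. That median depends on the probe taken for Col4a6, since the brighter one used gave -0.59 and a second one 3.05. The other collagens had 8 of 17 higher and 4 lower, with a median of 1.38, and all 4 genes called lower in mEpiSC belonged to this class. The median over all genes tested was 0.07. With the LS arrays alone as LIF serum, these medians were 1.20, 0.71 and -0.13, and with the LSFF arrays alone 2.67, -0.02 and 1.56, so the sign turned for the other collagens in the first case and for the basement membrane chains in the second. These counts include genes that entered through 1 group alone: 5 of 11 fibrillar, 2 of 6 basement membrane and 3 of 17 other chains entered through mEpiSC, and 2 others, Col17a1 and Col6a4, both called lower, through LIF serum. Of the 14 genes measured in all groups, 7 were higher and 1 lower in mEpiSC, with 3 of 4 fibrillar, 1 of 4 basement membrane and 3 of 6 other chains higher and 1 of the others lower. Their class medians were 2.42, 0.53 and 0.68.

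From mEpiSC to 2i, the median fell by 4.34 in fibrillar chains, with 8 of 11 called lower, by 2.47 in basement membrane chains, with 4 of 6 lower, and by 2.20 in the others, with 10 of 17 lower and 3 higher. With genes not above background in 2i set at their bound, the first 2 medians were -4.31 and -2.46. For the others the median was -2.84 over 15 of the 17, since Col17a1 and Col6a4 were above background on no array of either group and were left out. For 2iSB the medians against mEpiSC were -4.79, -2.55 and -2.14, and with bounds -4.45, -2.55 and, over 16 of the others, -2.65. Against LIF serum, the 2i medians were -1.63, -1.44 and -2.58, with 7, 4 and 11 genes called lower, and with bounds -1.48, -1.44 and -1.90. The 2iSB medians against LIF serum were -1.93, -1.52 and -2.40, with the same 3 counts, and with bounds -1.86, -1.52 and -1.82. The basement membrane medians depend here too on the probe taken for Col4a6. From mEpiSC to 2i its brighter probe differed by 0.71 and its second probe by -5.30. Of the 14 genes measured in all groups, 9 were lower and none higher in each ground state than in LIF serum, and 10 were lower and 2 higher than in mEpiSC. Over these genes the class medians, in the same order, were -1.95, -1.92 and -0.10 in 2i against LIF serum and -2.02, -2.23 and -0.23 in 2iSB. Against mEpiSC they were -4.55, -2.52 and -0.62 in 2i and -4.62, -2.83 and -0.75 in 2iSB. The larger fall of the other collagens over all 17 thus rested on genes not measured in every group.

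The type I collagen genes were among those with the widest range over groups. Col1a1, the alpha 1 chain of the main bone and skin fibril, was 4.65, 4.47, 1.38 and 1.81 in LIF serum, 5.48, 5.28, 5.61 and 5.18 in mEpiSC, -1.90, -1.67, -2.31 and -2.68 in 2i and -3.78, -2.41, -2.49 and -3.56 in 2iSB. Col1a2, its partner chain, was 5.47, 5.08, 1.22 and 1.35 in LIF serum, 6.59, 6.42, 6.74 and 6.13 in mEpiSC, -3.42, -3.26, -2.19 and -5.78 in 2i and -3.86, -3.24, -4.90 and -3.69 in 2iSB, with 1 array of 2i and 1 of 2iSB not above background. Both genes were high and tightly spaced in mEpiSC, low in the ground states, and split in LIF serum between arrays 1 and 2, which lay close to mEpiSC, and arrays 3 and 4. No ground state array reached a LIF serum array.

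Col1a1 was 4.96-fold higher (log2 difference 2.31 ± 0.62, adjusted p = 0.006) in mEpiSC than in LIF serum, and Col1a2 was 9.17-fold higher (log2 difference 3.20 ± 0.92, adjusted p = 0.0091). Against the LS arrays alone neither was called (Col1a1 0.83 ± 0.38, adjusted p = 0.089; Col1a2 1.20 ± 0.72, adjusted p = 0.19). Relative to LIF serum, Col1a1 was 37.1-fold lower (log2 difference -5.22 ± 0.62, adjusted p = 3.6e-05) in 2i and 70.3-fold lower (log2 difference -6.14 ± 0.62, adjusted p = 7.5e-06) in 2iSB. Col1a2 was 122-fold lower (log2 difference -6.94 ± 0.92, adjusted p = 8.4e-05) in 2i and 147-fold lower (log2 difference -7.20 ± 0.92, adjusted p = 5.3e-05) in 2iSB. From mEpiSC, Col1a1 was 184-fold lower (log2 difference -7.53 ± 0.62, adjusted p = 9.9e-08) in 2i and 349-fold lower (log2 difference -8.45 ± 0.62, adjusted p = 2.8e-08) in 2iSB. The step for Col1a2 was the steepest of the fibrillar chains, as it was 1120-fold lower (log2 difference -10.13 ± 0.92, adjusted p = 2.7e-07) in 2i and 1350-fold lower (log2 difference -10.39 ± 0.92, adjusted p = 2e-07) in 2iSB.

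**Figure D2:**
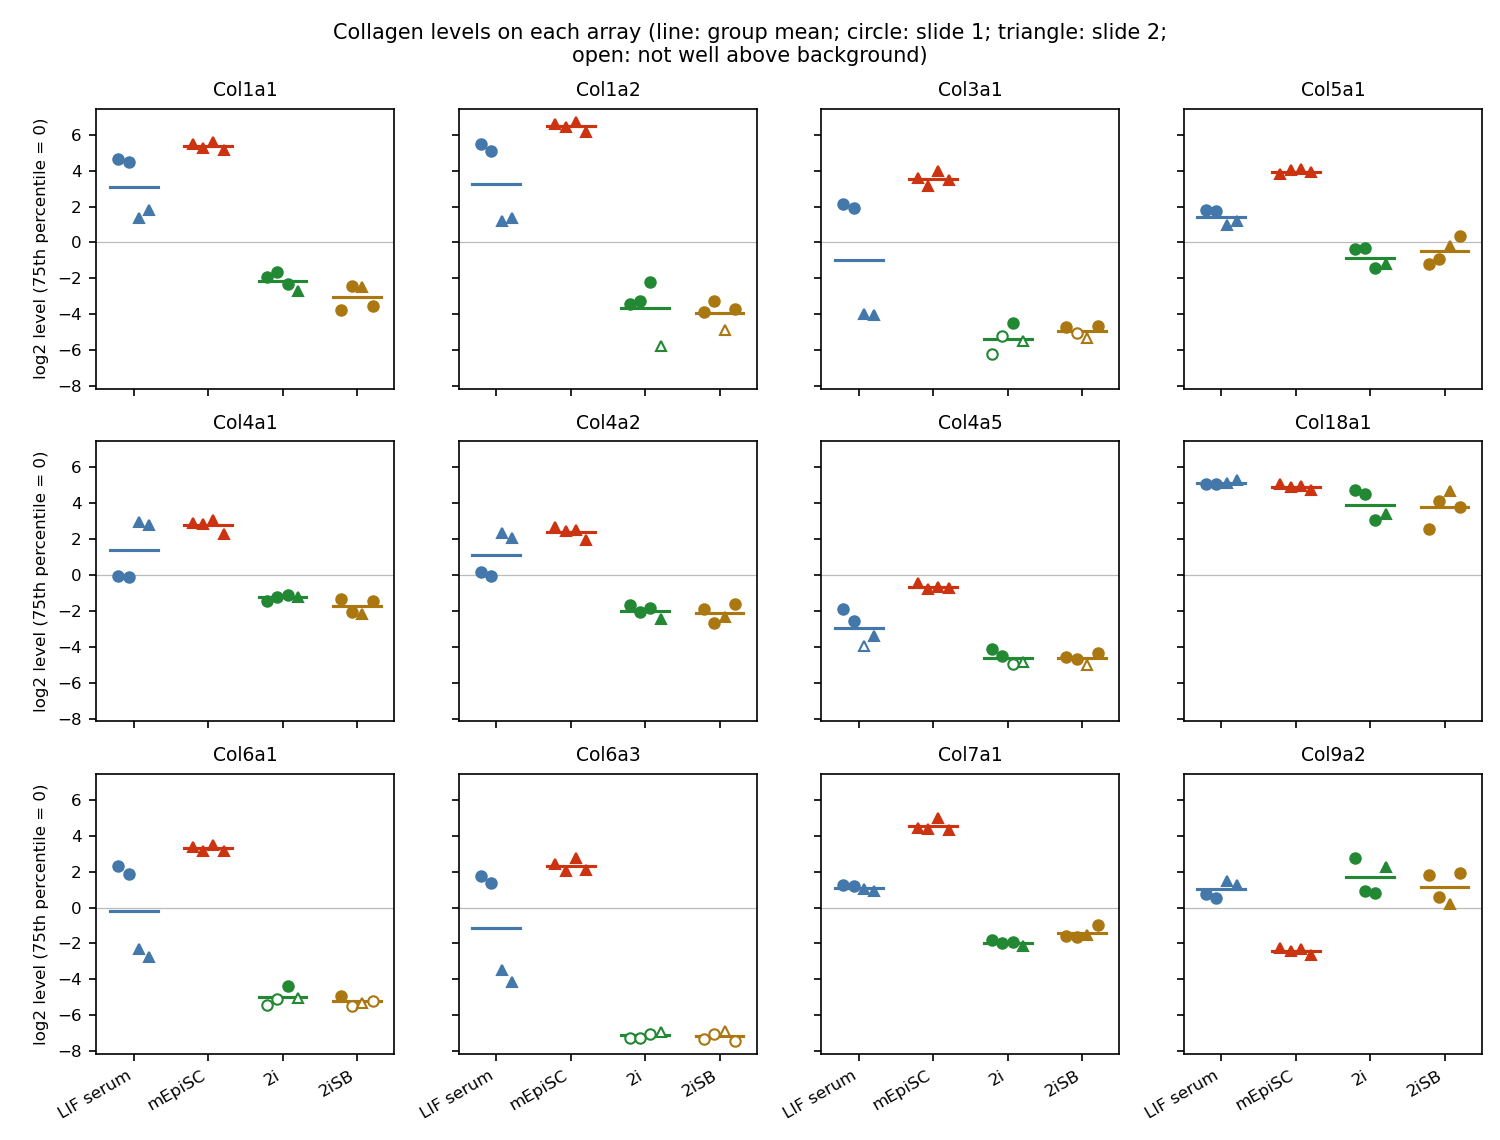
Log2 level of 12 collagens (panels) on each of 16 arrays by group, where 0 is the 75th percentile of the array, a line is the group mean, circles are slide 1, triangles slide 2 and open symbols are not well above background. In LIF serum the slide 1 and slide 2 arrays lie apart for Col1a1, Col1a2, Col3a1, Col6a1 and Col6a3 in one direction and for Col4a1 and Col4a2 in the other, and lie together for Col18a1 and Col7a1.

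Type III collagen forms fibrils together with type I in elastic tissues. Col3a1 was 2.14, 1.94, -3.99 and -4.03 in LIF serum, 3.60, 3.14, 3.97 and 3.49 in mEpiSC, -6.24, -5.19, -4.47 and -5.51 in 2i and -4.70, -5.06, -5.34 and -4.66 in 2iSB, with 1 of 4 arrays above background in 2i and 2 of 4 in 2iSB. Arrays 1 and 2 of LIF serum were near mEpiSC, and arrays 3 and 4 were near the ground states, so that the group's SD was 3.49. The level in mEpiSC was 23.2-fold higher (log2 difference 4.53 ± 1.16, adjusted p = 0.0042) than in LIF serum. The log2 difference was 1.51 against the LS arrays and 7.56 against the LSFF arrays. Relative to LIF serum it was 20.6-fold lower (log2 difference -4.37 ± 1.16, adjusted p = 0.011) in 2i and 15.5-fold lower (log2 difference -3.95 ± 1.16, adjusted p = 0.017) in 2iSB. The latter was not called with the LSFF arrays alone (-0.93 ± 0.39, adjusted p = 0.078) or without LIF serum array 2 (-2.98 ± 1.09, adjusted p = 0.053). From mEpiSC, Col3a1 was 478-fold lower (log2 difference -8.90 ± 1.16, adjusted p = 1.1e-05) in 2i and 359-fold lower (log2 difference -8.49 ± 1.16, adjusted p = 1.8e-05) in 2iSB. The mean of each ground state lay at or near background, so these folds do not measure the low level: with signals not above background raised to the lowest signal well above it on the array, they were 394-fold and 359-fold.

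The type V genes, whose products start fibrils and limit their width, differed from types I and III in that LIF serum arrays lay closer together. Col5a1 was 1.79, 1.73, 1.0 and 1.22 in LIF serum, 3.81, 4.02, 4.09 and 3.90 in mEpiSC, -0.39, -0.33, -1.44 and -1.21 in 2i and -1.22, -0.92, -0.21 and 0.37 in 2iSB. The mEpiSC arrays were above all others, and both ground states lay below every LIF serum array. In mEpiSC, Col5a1 was 5.73-fold higher (log2 difference 2.52 ± 0.33, adjusted p = 1.9e-05) than in LIF serum. The gene was 4.86-fold lower (log2 difference -2.28 ± 0.33, adjusted p = 0.00018) in 2i and 3.81-fold lower (log2 difference -1.93 ± 0.33, adjusted p = 0.00056) in 2iSB than in LIF serum, and 27.8-fold lower (log2 difference -4.80 ± 0.33, adjusted p = 1.5e-08) and 21.8-fold lower (log2 difference -4.45 ± 0.33, adjusted p = 3.2e-08) than in mEpiSC. Each of these calls held with either pair of LIF serum arrays.

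Col5a2, the alpha 2 chain and a neighbour of Col3a1, was -3.24, -3.61, -5.37 and -4.53 in LIF serum, -0.05, -0.51, 0.64 and -0.30 in mEpiSC, -6.10, -5.54, -6.26 and -5.0 in 2i and -7.53, -5.47, -4.51 and -4.75 in 2iSB. No 2i array and 2 of 4 2iSB arrays were above background, and the gene entered through mEpiSC alone. It was 17.6-fold higher (log2 difference 4.13 ± 0.60, adjusted p = 4.2e-05) in mEpiSC than in LIF serum, and at least 37.7-fold lower (fitted log2 difference -5.67 ± 0.60, adjusted p = 1.2e-06) in 2i and 45.5-fold lower (log2 difference -5.51 ± 0.60, adjusted p = 1.7e-06) in 2iSB than in mEpiSC. The difference from LIF serum was not called in 2i (log2 difference -1.54 ± 0.60, adjusted p = 0.065) or in 2iSB (log2 difference -1.38 ± 0.60, adjusted p = 0.09), although it was called against the LS arrays alone (-2.30 ± 0.68 and -2.14 ± 0.68). Col5a3, the alpha 3 chain, was 0.01, -0.22, -0.01 and -0.17 in LIF serum, 2.28, 2.41, 3.21 and 2.41 in mEpiSC, -2.32, -2.26, -1.90 and -0.42 in 2i and -0.93, -2.45, -1.84 and -3.62 in 2iSB. Its LIF serum arrays were within 0.23 of each other, and its mEpiSC arrays were all higher. It was 6.39-fold higher (log2 difference 2.68 ± 0.49, adjusted p = 0.00034) in mEpiSC than in LIF serum, 3.09-fold lower (log2 difference -1.63 ± 0.49, adjusted p = 0.021) in 2i and 4.33-fold lower (log2 difference -2.11 ± 0.49, adjusted p = 0.0044) in 2iSB. The 2i call against LIF serum was lost without 2i array 1 (-1.43 ± 0.53, adjusted p = 0.059) or array 2 (-1.45 ± 0.53, adjusted p = 0.065) and with the LS (-1.62 ± 0.64, adjusted p = 0.1) or the LSFF arrays alone (-1.64 ± 0.64, adjusted p = 0.066). From mEpiSC it was 19.8-fold lower (log2 difference -4.31 ± 0.49, adjusted p = 2.9e-06) in 2i and 27.7-fold lower (log2 difference -4.79 ± 0.49, adjusted p = 9.3e-07) in 2iSB.

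Type II collagen is the main fibril of cartilage. Col2a1 was 1.09, 0.83, 1.68 and 1.63 in LIF serum, 2.50, 1.69, 2.06 and 2.05 in mEpiSC, 0.58, 0.14, -0.34 and -1.07 in 2i and -0.79, -0.33, 0.02 and -1.09 in 2iSB, above background on every array. All LIF serum and mEpiSC arrays were above all ground state arrays. It was 2.79-fold lower (log2 difference -1.48 ± 0.34, adjusted p = 0.0043) in 2i and 3.62-fold lower (log2 difference -1.86 ± 0.34, adjusted p = 8e-04) in 2iSB than in LIF serum, and 4.74-fold lower (log2 difference -2.25 ± 0.34, adjusted p = 4.5e-05) and 6.16-fold lower (log2 difference -2.62 ± 0.34, adjusted p = 9.7e-06) than in mEpiSC. The difference between mEpiSC and LIF serum was not called (log2 difference 0.76 ± 0.34, adjusted p = 0.069), though their arrays did not overlap. Against the LS arrays alone it was called (1.11 ± 0.41, adjusted p = 0.038), and that of 2i was not (-1.13 ± 0.41, adjusted p = 0.072). Col27a1, a fibrillar chain of developing cartilage, was -5.25, -4.96, -4.26 and -3.89 in LIF serum, -2.31, -2.68, -1.82 and -2.32 in mEpiSC, -7.32, -6.43, -5.74 and -7.02 in 2i and -7.33, -6.75, -6.91 and -7.45 in 2iSB, and only array 4 of LIF serum and the mEpiSC arrays were above background. Col27a1 entered through mEpiSC alone, and it was 4.94-fold higher there (log2 difference 2.31 ± 0.35, adjusted p = 6.5e-05) than in LIF serum. In 2i and 2iSB it was at least 8.04-fold lower (fitted log2 difference -4.34 ± 0.35, adjusted p = 7.1e-08) and at least 10-fold lower (fitted log2 difference -4.83 ± 0.35, adjusted p = 2.3e-08) than in mEpiSC. With 1 of 4 LIF serum arrays above background, it was at least 1.63-fold lower (fitted log2 difference -2.04 ± 0.35, adjusted p = 6e-04) in 2i and at least 2.03-fold lower (fitted log2 difference -2.52 ± 0.35, adjusted p = 1e-04) in 2iSB than in LIF serum. The 2i call was lost with normexp background correction (-0.50 ± 0.20, adjusted p = 0.064), with the deposited values (-0.93 ± 0.27, adjusted p = 0.015) and on slide 1, and the 2iSB difference with normexp was -0.65 ± 0.20, adjusted p = 0.018, under 2-fold. The remaining fibrillar chains, Col11a1, Col11a2 and Col24a1, were above background on all arrays in mEpiSC alone and were called in no comparison.

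Among the basement membrane collagens, the paired genes Col4a1 and Col4a2 were the only collagens called higher in the LSFF than in the LS arrays. Col4a1 was -0.06, -0.12, 2.95 and 2.77 in LIF serum, 2.92, 2.87, 3.06 and 2.29 in mEpiSC, -1.47, -1.21, -1.09 and -1.22 in 2i and -1.32, -2.07, -2.16 and -1.45 in 2iSB. Col4a2 was 0.19, -0.06, 2.34 and 2.08 in LIF serum, 2.67, 2.45, 2.49 and 1.97 in mEpiSC, -1.65, -2.07, -1.81 and -2.46 in 2i and -1.87, -2.70, -2.32 and -1.64 in 2iSB. In both genes, LIF serum arrays 3 and 4 lay within the range of mEpiSC, arrays 1 and 2 lay near 0, and all ground state arrays were below -1. The LIF serum arrays thus stood in the reverse order from that of Col1a1, Col3a1 and Col6a1.

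For Col4a1, the difference between mEpiSC and LIF serum was not called (log2 difference 1.40 ± 0.58, adjusted p = 0.055), but it was 2.87 against the LS arrays and -0.07 against the LSFF arrays. Col4a2 was 2.39-fold higher (log2 difference 1.26 ± 0.46, adjusted p = 0.032) in mEpiSC, a call that was lost with the LSFF arrays alone (0.19 ± 0.31, adjusted p = 0.64) and with the slide as a block (0.96 ± 0.49, adjusted p = 0.11). It was lost as well without any 1 of mEpiSC arrays 1, 2 and 3 or LIF serum arrays 1 and 2, where the difference lay between 0.86 and 1.24 with adjusted p from 0.062 to 0.11. Relative to LIF serum, Col4a1 was 6.2-fold lower (log2 difference -2.63 ± 0.58, adjusted p = 0.0036) in 2i and 8.76-fold lower (log2 difference -3.13 ± 0.58, adjusted p = 0.00097) in 2iSB. Col4a2 was 8.78-fold lower (log2 difference -3.13 ± 0.46, adjusted p = 0.00019) in 2i and 9.62-fold lower (log2 difference -3.27 ± 0.46, adjusted p = 0.00012) in 2iSB. From mEpiSC, Col4a1 was 16.4-fold lower (log2 difference -4.03 ± 0.58, adjusted p = 3.2e-05) in 2i and 23.1-fold lower (log2 difference -4.53 ± 0.58, adjusted p = 9.9e-06) in 2iSB. The matching values for Col4a2 were 21-fold lower (log2 difference -4.39 ± 0.46, adjusted p = 1.2e-06) and 23-fold lower (log2 difference -4.53 ± 0.46, adjusted p = 8.9e-07). These ground state calls held with either pair of LIF serum arrays.

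Col4a5 and Col4a6, whose chains join in the basement membranes of skin and smooth muscle and whose promoter windows are printed above, gave different patterns. Col4a5 was -1.88, -2.54, -3.95 and -3.37 in LIF serum, -0.47, -0.79, -0.67 and -0.75 in mEpiSC, -4.14, -4.52, -4.93 and -4.82 in 2i and -4.55, -4.66, -4.99 and -4.37 in 2iSB, with 2 of 4 arrays above background in 2i and 3 of 4 in LIF serum and 2iSB. Col4a5 entered through mEpiSC alone. It was 4.79-fold higher (log2 difference 2.26 ± 0.34, adjusted p = 6.2e-05) in mEpiSC than in LIF serum, and every mEpiSC array was above every other. It was 3.18-fold lower (log2 difference -1.67 ± 0.34, adjusted p = 0.0021) in 2i and 3.27-fold lower (log2 difference -1.71 ± 0.34, adjusted p = 0.0016) in 2iSB than in LIF serum, and neither passed 2-fold with the LSFF arrays alone (-0.95 ± 0.25 and -0.98 ± 0.25) or with normexp background correction (-0.67 ± 0.18 and -0.79 ± 0.18). From mEpiSC, Col4a5 was 15.3-fold lower (log2 difference -3.93 ± 0.34, adjusted p = 1.6e-07) in 2i and 15.7-fold lower (log2 difference -3.97 ± 0.34, adjusted p = 1.4e-07) in 2iSB.

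The brighter probe of Col4a6 was called in none of the comparisons between groups, and its means were -2.40 in LIF serum, -2.99 in mEpiSC, -2.28 in 2i and -2.43 in 2iSB. A second Col4a6 probe, above background on all mEpiSC arrays, had means of -4.55, -1.50, -6.80 and -7.19 in the same order, a log2 difference of 3.05 between mEpiSC and LIF serum. The second probe followed the order of Col4a5 and the first did not, so the change of Col4a6 is uncertain here. Col4a4, a chain of the kidney filter, was called in no comparison, and its group means lay between -4.72 and -4.18.

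Col18a1 was above background on every array, at 5.05, 5.05, 5.11 and 5.31 in LIF serum, 5.08, 4.90, 4.98 and 4.76 in mEpiSC, 4.71, 4.50, 3.08 and 3.42 in 2i and 2.56, 4.13, 4.70 and 3.80 in 2iSB. At the probe used, all LIF serum and mEpiSC arrays were above all ground state arrays, and the ground state arrays spread widely. It was 2.3-fold lower (log2 difference -1.20 ± 0.40, adjusted p = 0.035) in 2i and 2.52-fold lower (log2 difference -1.33 ± 0.40, adjusted p = 0.02) in 2iSB than in LIF serum, and 2-fold lower (log2 difference -1.0 ± 0.40, adjusted p = 0.046) and 2.19-fold lower (log2 difference -1.13 ± 0.40, adjusted p = 0.027) than in mEpiSC. These were among the smallest called differences. The call of 2i against LIF serum was lost in leaving out 2i array 3 (-0.92 ± 0.40, adjusted p = 0.1), 2i array 4 (-1.03 ± 0.43, adjusted p = 0.088) or any 1 LIF serum array. The call of 2iSB against LIF serum was lost without 2iSB array 1 (-0.92 ± 0.34, adjusted p = 0.049), where the difference no longer reached 2-fold. With the LS arrays alone neither was called (2i, -1.12 ± 0.53, adjusted p = 0.16; 2iSB, -1.25 ± 0.53, adjusted p = 0.11), nor with the LSFF arrays alone (2i, -1.28 ± 0.53, adjusted p = 0.076; 2iSB, -1.41 ± 0.53, adjusted p = 0.053). Both were lost on slide 1 alone and with the arrays centred on their median (2i, -1.20 ± 0.47, adjusted p = 0.084; 2iSB, -1.32 ± 0.47, adjusted p = 0.053), and that of 2iSB on slide 2 as well (-0.51 ± 0.18, adjusted p = 0.051). A second Col18a1 probe, also above background on every array, gave smaller differences from mEpiSC, -0.41 in 2i and -0.42 in 2iSB. The calls against mEpiSC were lost with the mean of both probes (2i, -0.71 ± 0.39, adjusted p = 0.14; 2iSB, -0.78 ± 0.39, adjusted p = 0.11). They were lost as well with the slide as a block (2i, -0.83 ± 0.49, adjusted p = 0.17; 2iSB, -0.96 ± 0.49, adjusted p = 0.12). With the deposited values, where the probe was picked anew, neither was called (-0.45 ± 0.36 and -0.46 ± 0.36). For 2i the call was also lost without any 1 mEpiSC array or 2i array 3 or 4 (-1.06 to -0.72), and for 2iSB without mEpiSC array 1 or 3 or 2iSB array 1 (-1.11 to -0.72).

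Type VI collagen forms beaded microfibrils around many cell types from the products of Col6a1, Col6a2 and one longer chain, most often that of Col6a3. Col6a1 was 2.33, 1.86, -2.33 and -2.73 in LIF serum, 3.37, 3.15, 3.50 and 3.18 in mEpiSC, -5.43, -5.07, -4.36 and -5.05 in 2i and -4.90, -5.49, -5.31 and -5.23 in 2iSB. Col6a2, its neighbour in the genome, was -0.55, -1.10, -4.22 and -4.46 in LIF serum, 0.25, -0.10, 0.65 and -0.09 in mEpiSC, -5.45, -4.63, -4.58 and -6.83 in 2i and -4.70, -4.69, -5.81 and -4.72 in 2iSB. Col6a3 was 1.77, 1.38, -3.49 and -4.14 in LIF serum, 2.44, 2.04, 2.78 and 2.11 in mEpiSC, -7.27, -7.24, -7.03 and -6.96 in 2i and -7.31, -7.06, -6.86 and -7.43 in 2iSB. In all 3 genes the mEpiSC arrays were highest, LIF serum arrays 1 and 2 came next, arrays 3 and 4 followed, and the ground states were lowest. Background limited the low end: 1 array of each ground state was above it for Col6a1, 2 of 2i and 3 of 2iSB for Col6a2, and none for Col6a3.

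Col6a1 was 11.4-fold higher (log2 difference 3.52 ± 0.88, adjusted p = 0.0037) in mEpiSC than in LIF serum, Col6a2 was 6.78-fold higher (log2 difference 2.76 ± 0.77, adjusted p = 0.0075) and Col6a3 was 11-fold higher (log2 difference 3.46 ± 1.02, adjusted p = 0.01). Against the LS arrays alone the log2 difference was 1.01 for Col6a2 and 0.77 for Col6a3, and neither was called. In 2i relative to LIF serum, Col6a1 was 27.1-fold lower (log2 difference -4.76 ± 0.88, adjusted p = 0.0011), Col6a2 was 6.92-fold lower (log2 difference -2.79 ± 0.77, adjusted p = 0.013) and Col6a3 was at least 18-fold lower (fitted log2 difference -6.01 ± 1.02, adjusted p = 0.00055). For 2iSB the values were 32.3-fold lower (log2 difference -5.01 ± 0.88, adjusted p = 0.00064), 5.27-fold lower (log2 difference -2.40 ± 0.77, adjusted p = 0.027) and at least 22.5-fold lower (fitted log2 difference -6.05 ± 1.02, adjusted p = 0.00046) in the same order. With the LSFF arrays alone, Col6a2 was called in neither ground state (-1.04 ± 0.54 and -0.64 ± 0.54). The 2iSB call of Col6a2 was also lost without 2iSB array 3 (-2.12 ± 0.84, adjusted p = 0.074), LIF serum array 1 (-1.72 ± 0.71, adjusted p = 0.079) or array 2 (-1.90 ± 0.79, adjusted p = 0.082). From mEpiSC to 2i, Col6a1 was 310-fold lower (log2 difference -8.28 ± 0.88, adjusted p = 1.4e-06), Col6a2 was 47-fold lower (log2 difference -5.55 ± 0.77, adjusted p = 2.1e-05) and Col6a3 was at least 199-fold lower (fitted log2 difference -9.47 ± 1.02, adjusted p = 1.5e-06). From mEpiSC to 2iSB, Col6a1 was 370-fold lower (log2 difference -8.53 ± 0.88, adjusted p = 1e-06), Col6a2 was 35.7-fold lower (log2 difference -5.16 ± 0.77, adjusted p = 4.5e-05) and Col6a3 was at least 248-fold lower (fitted log2 difference -9.51 ± 1.02, adjusted p = 1.5e-06). With signals not above background raised to the lowest signal well above it on the array, the folds from mEpiSC were 306-fold and 344-fold for Col6a1 and 34-fold and 34.5-fold for Col6a2, in 2i and 2iSB.

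The newer type VI chains went the other way between mEpiSC and LIF serum. Col6a4 was -3.71, -4.0, -3.01 and -2.83 in LIF serum, -6.63, -7.93, -6.23 and -6.74 in mEpiSC, -6.22, -6.37, -5.09 and -7.0 in 2i and -6.13, -5.63, -6.94 and -5.90 in 2iSB, and the 4 LIF serum arrays alone were above background. It was at least 5.5-fold lower (fitted log2 difference -3.49 ± 0.44, adjusted p = 1.2e-05) in mEpiSC, at least 3.73-fold lower (fitted log2 difference -2.78 ± 0.44, adjusted p = 0.00033) in 2i and at least 4.56-fold lower (fitted log2 difference -2.76 ± 0.44, adjusted p = 3e-04) in 2iSB than in LIF serum. With normexp background correction the 2i difference was -0.99 ± 0.18, adjusted p = 0.00069, just under 2-fold and less than the bound. Col6a5, its neighbour, was -2.31, -2.42, -3.42 and -4.11 in LIF serum, -4.55, -4.41, -4.92 and -4.94 in mEpiSC, -7.32, -7.25, -6.01 and -7.02 in 2i and -7.30, -5.75, -6.88 and -7.46 in 2iSB, and this probe was above background on all arrays of LIF serum and mEpiSC and on no ground state array. A second, dimmer Col6a5 probe was above background on 1 of 4 2iSB arrays, so no bound is given for 2iSB. It was 3.12-fold lower (log2 difference -1.64 ± 0.44, adjusted p = 0.0056) in mEpiSC than in LIF serum, at least 4.67-fold lower (fitted log2 difference -3.83 ± 0.44, adjusted p = 2.4e-05) in 2i and lower, with no fold given (fitted log2 difference -3.78 ± 0.44, adjusted p = 2.3e-05) in 2iSB. Relative to mEpiSC it was at least 1.5-fold lower (fitted log2 difference -2.20 ± 0.44, adjusted p = 0.00059) in 2i and lower, with no fold given (fitted log2 difference -2.14 ± 0.44, adjusted p = 0.00073) in 2iSB. The 2i and 2iSB calls against mEpiSC were lost with normexp background correction (-0.41 ± 0.22 and -0.46 ± 0.22), and with signals not above background raised to the lowest signal well above it (-0.58 ± 0.34 and -0.91 ± 0.34). The mEpiSC call against LIF serum was lost with the LSFF arrays alone (-0.94 ± 0.46, adjusted p = 0.11) and with normexp background correction (-0.82 ± 0.22, adjusted p = 0.0046), which left it under 2-fold.

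Among the fibril-associated collagens, Col16a1 followed the main order, while Col9a2 was lowest in mEpiSC. Col16a1, whose product sits on fibrils in connective tissue, was 1.39, 1.15, -0.73 and -0.41 in LIF serum, 3.40, 3.03, 3.78 and 2.98 in mEpiSC, -1.12, -1.92, -2.87 and -3.03 in 2i and -2.19, -1.63, -1.42 and -1.49 in 2iSB. No 2 of mEpiSC, LIF serum and the ground state pair overlapped. It was 7.72-fold higher (log2 difference 2.95 ± 0.49, adjusted p = 0.00014) in mEpiSC than in LIF serum, 5.99-fold lower (log2 difference -2.58 ± 0.49, adjusted p = 0.0012) in 2i and 4.09-fold lower (log2 difference -2.03 ± 0.49, adjusted p = 0.0053) in 2iSB. Relative to mEpiSC it was 46.2-fold lower (log2 difference -5.53 ± 0.49, adjusted p = 1.8e-07) in 2i and 31.6-fold lower (log2 difference -4.98 ± 0.49, adjusted p = 5.5e-07) in 2iSB. With the LSFF arrays alone the 2iSB call against LIF serum was lost (-1.11 ± 0.45, adjusted p = 0.073). Of the 3 probes for Col16a1, the log2 difference of mEpiSC from LIF serum ran from 1.75 to 2.95, and that of 2i from LIF serum from -2.58 to 0.16. The probe that gave 0.16 was above background on 0 of 4 LIF serum arrays and 1 of 4 2i arrays, so that value does not measure the change.

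Col9a2, a chain of the type IX collagen that coats cartilage fibrils, was 0.75, 0.56, 1.46 and 1.27 in LIF serum, -2.27, -2.40, -2.31 and -2.67 in mEpiSC, 2.74, 0.94, 0.79 and 2.26 in 2i and 1.82, 0.58, 0.22 and 1.91 in 2iSB. Every mEpiSC array was below every array of the other 3 groups, and it was the collagen with the largest rise from mEpiSC to the ground states. It was 10.7-fold lower (log2 difference -3.43 ± 0.45, adjusted p = 1.7e-05) in mEpiSC than in LIF serum, and 17.1-fold higher (log2 difference 4.10 ± 0.45, adjusted p = 1.9e-06) in 2i and 11.7-fold higher (log2 difference 3.55 ± 0.45, adjusted p = 8.5e-06) in 2iSB than in mEpiSC. Its differences between the ground states and LIF serum were not called (2i, log2 difference 0.67 ± 0.45, adjusted p = 0.28; 2iSB, log2 difference 0.12 ± 0.45, adjusted p = 0.87). Col20a1 was -3.60, -4.11, -4.02 and -3.57 in LIF serum, -4.76, -4.41, -3.73 and -3.36 in mEpiSC, -2.18, -3.10, -2.52 and -3.04 in 2i and -2.48, -3.20, -3.78 and -1.54 in 2iSB. It was 2.56-fold higher (log2 difference 1.35 ± 0.42, adjusted p = 0.013) in 2i and 2.49-fold higher (log2 difference 1.31 ± 0.42, adjusted p = 0.015) in 2iSB than in mEpiSC, and both calls were lost with the arrays centred on their median (0.82 ± 0.38 and 0.79 ± 0.38), with normexp background correction (0.74 ± 0.22 and 0.75 ± 0.22) and with the slide as a block. That of 2iSB was lost without 2iSB array 4 (0.91 ± 0.37, adjusted p = 0.052) or mEpiSC array 1 (1.08 ± 0.44, adjusted p = 0.054). Its differences from LIF serum were not called. Col22a1, a collagen of the junction of muscle and tendon, was -2.80, -3.28, -2.66 and -3.02 in LIF serum, -1.21, -1.11, -1.24 and -1.81 in mEpiSC, -2.33, -2.24, -2.78 and -3.57 in 2i and -3.90, -2.65, -2.63 and -2.40 in 2iSB. It was 3.03-fold higher (log2 difference 1.60 ± 0.33, adjusted p = 0.00097) in mEpiSC than in LIF serum, and 2.62-fold lower (log2 difference -1.39 ± 0.33, adjusted p = 0.0025) in 2i and 2.94-fold lower (log2 difference -1.55 ± 0.33, adjusted p = 0.0011) in 2iSB than in mEpiSC. Its ground state and LIF serum arrays overlapped. Col14a1 was called in no comparison.

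The short-chain collagens were near or below background in the ground states. Col8a1, Col8a2 and Col10a1 each entered through mEpiSC alone, so their differences from mEpiSC and the p-values were in part selected. Col8a1, a chain of the network under vascular endothelium and in the cornea, was -1.76, -1.88, -4.99 and -5.46 in LIF serum, -0.65, -1.36, -0.78 and -1.55 in mEpiSC, -7.43, -7.39, -7.18 and -7.18 in 2i and -7.45, -7.22, -7.07 and -7.60 in 2iSB, with LIF serum arrays 1 and 2 and all mEpiSC arrays above background. It was 5.42-fold higher (log2 difference 2.44 ± 0.66, adjusted p = 0.0062) in mEpiSC than in LIF serum, though 0.73 ± 0.25 against the LS arrays alone (adjusted p = 0.026), which is under 2-fold. It was at least 18.5-fold lower (fitted log2 difference -6.22 ± 0.66, adjusted p = 1.4e-06) in 2i and at least 23.1-fold lower (fitted log2 difference -6.25 ± 0.66, adjusted p = 1.3e-06) in 2iSB than in mEpiSC. Relative to LIF serum, with 2 of 4 arrays above background there, it was at least 3.41-fold lower (fitted log2 difference -3.78 ± 0.66, adjusted p = 7e-04) in 2i and at least 4.26-fold lower (fitted log2 difference -3.81 ± 0.66, adjusted p = 0.00057) in 2iSB. Col8a2 was -4.95, -4.72, -4.35 and -3.97 in LIF serum, 0.64, 0.20, 0.06 and 0.30 in mEpiSC, -4.90, -7.50, -7.27 and -7.24 in 2i and -7.53, -7.31, -7.17 and -7.70 in 2iSB, with 3 LIF serum arrays, 1 array of 2i and none of 2iSB above background. It was 27.8-fold higher (log2 difference 4.80 ± 0.44, adjusted p = 4.9e-07) in mEpiSC than in LIF serum, the largest such rise among the collagens, and lower in 2i (fitted log2 difference -7.03 ± 0.44, adjusted p = 4.9e-09) and at least 60.3-fold lower (fitted log2 difference -7.73 ± 0.44, adjusted p = 1.9e-09) in 2iSB than in mEpiSC. Since 3 of 4 2i arrays were not above background, the 2i fold is given with those raised to the lowest signal well above it on the array, 42.3-fold. Relative to LIF serum it was lower in 2i (fitted log2 difference -2.23 ± 0.44, adjusted p = 0.0016), a call that was lost with those arrays so raised (-0.61 ± 0.24, adjusted p = 0.069) and with normexp background correction (-0.61 ± 0.19, adjusted p = 0.021). In 2iSB it was at least 2.17-fold lower (fitted log2 difference -2.93 ± 0.44, adjusted p = 0.00019) than in LIF serum, and with normexp the difference was -0.80 ± 0.19, adjusted p = 0.0037, under 2-fold. A second Col8a2 probe gave smaller differences, of 1.57 between mEpiSC and LIF serum and -2.05 between 2i and mEpiSC.

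Col10a1, known from the hypertrophic cartilage of the growth plate, was -1.11, -1.67, -5.61 and -6.91 in LIF serum, -2.07, -2.72, -2.21 and -2.79 in mEpiSC, -7.35, -7.30, -6.23 and -6.70 in 2i and -7.30, -7.13, -5.72 and -7.50 in 2iSB. The LIF serum arrays 1 and 2 were above all mEpiSC arrays, while arrays 3 and 4 and every ground state array were not above background. It was at least 7.18-fold lower (fitted log2 difference -4.45 ± 0.98, adjusted p = 0.0013) in 2i and at least 8.97-fold lower (fitted log2 difference -4.47 ± 0.98, adjusted p = 0.0013) in 2iSB than in mEpiSC. The calls against LIF serum rested on its arrays 1 and 2, of which both were above background: Col10a1 was at least 2.76-fold lower (fitted log2 difference -3.07 ± 0.98, adjusted p = 0.028) in 2i and at least 3.45-fold lower (fitted log2 difference -3.09 ± 0.98, adjusted p = 0.025) in 2iSB. With the LSFF arrays alone neither was called (-0.64 ± 0.50, adjusted p = 0.35; -0.66 ± 0.50, adjusted p = 0.33). They were lost as well without LIF serum array 1 or 2, where the differences lay between -2.37 and -2.17 with adjusted p from 0.073 to 0.087. The 2i call was lost without 2i array 1 or 2 (-2.92 and -2.94), and the 2iSB call without 2iSB array 2 or 4 (-3.02 and -2.89).

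Col7a1, the anchoring fibril collagen that ties the epidermal basement membrane to the dermis, was the member with the smallest error among those called. It was 1.24, 1.19, 1.06 and 0.92 in LIF serum, 4.41, 4.37, 4.98 and 4.31 in mEpiSC, -1.80, -1.99, -1.94 and -2.15 in 2i and -1.60, -1.63, -1.52 and -0.97 in 2iSB. The groups did not overlap, including 2i and 2iSB, and the LIF serum arrays of both codes lay within 0.32 of each other. It was 10.7-fold higher (log2 difference 3.42 ± 0.18, adjusted p = 1.6e-09) in mEpiSC than in LIF serum. In 2i and 2iSB it was 8.41-fold lower (log2 difference -3.07 ± 0.18, adjusted p = 6.6e-08) and 5.78-fold lower (log2 difference -2.53 ± 0.18, adjusted p = 3.4e-07) than in LIF serum, and 89.9-fold lower (log2 difference -6.49 ± 0.18, adjusted p = 1.4e-12) and 61.8-fold lower (log2 difference -5.95 ± 0.18, adjusted p = 3.1e-12) than in mEpiSC.

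Of the transmembrane collagens, Col17a1, a component of the hemidesmosomes of epithelial cells, was -3.78, -3.05, -2.57 and -2.25 in LIF serum, -5.75, -7.81, -7.49 and -7.19 in mEpiSC, -5.08, -6.20, -5.44 and -4.43 in 2i and -4.50, -5.38, -3.91 and -5.17 in 2iSB. All LIF serum arrays, 3 of 4 2iSB arrays and no array of mEpiSC or 2i were above background. It was at least 7.66-fold lower (fitted log2 difference -4.15 ± 0.49, adjusted p = 6.5e-06) in mEpiSC, at least 4.28-fold lower (fitted log2 difference -2.38 ± 0.49, adjusted p = 0.0023) in 2i and 3.54-fold lower (log2 difference -1.82 ± 0.49, adjusted p = 0.011) in 2iSB than in LIF serum. With the LS arrays alone the 2iSB call was lost (-1.32 ± 0.59, adjusted p = 0.13). With normexp background correction both ground state differences from LIF serum were under 2-fold (2i, -0.98 ± 0.21, adjusted p = 0.0019; 2iSB, -0.83 ± 0.21, adjusted p = 0.0054). Col17a1 was also at least 2.17-fold higher (fitted log2 difference 2.32 ± 0.49, adjusted p = 0.00095) in 2iSB than in mEpiSC, a call lost with normexp (0.38 ± 0.21, adjusted p = 0.13) and with the deposited values (0.78 ± 0.33, adjusted p = 0.055). Between 2i and mEpiSC, where both were below background, the fit called it higher in 2i (adjusted p = 0.0066), and no fold is given. Col23a1, also a transmembrane collagen, and Col26a1 were called in no comparison between groups. Their group means ran from -4.75 to -4.14 and from 0.24 to 0.81.

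The lines inside LIF serum were compared by their code, since the collagens separated them. In a fit with the LS and LSFF arrays as separate groups of 2, 13 of 34 collagens were called, 11 lower and 2 higher in LSFF, where 8.43% of all genes tested were called, 5.44% lower and 2.99% higher. Genes of types I and III and the main type VI chains were lower: Col1a1 was 7.81-fold lower (log2 difference -2.97 ± 0.43, adjusted p = 0.0011), Col1a2 was 15.9-fold lower (log2 difference -3.99 ± 0.81, adjusted p = 0.008) and Col3a1 was 66.2-fold lower (log2 difference -6.05 ± 0.43, adjusted p = 1.9e-06). Col6a1 was 24.7-fold lower (log2 difference -4.63 ± 0.30, adjusted p = 1.1e-06), Col6a2 was 11.4-fold lower (log2 difference -3.51 ± 0.61, adjusted p = 0.0034) and Col6a3 was 41.9-fold lower (log2 difference -5.39 ± 0.29, adjusted p = 1.8e-07). Col8a1 was at least 8.07-fold lower (fitted log2 difference -3.41 ± 0.29, adjusted p = 1e-05) and Col10a1 was at least 10.8-fold lower (fitted log2 difference -4.87 ± 0.57, adjusted p = 0.00021).

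The basement membrane chains divided. Col4a1 was 7.71-fold higher (log2 difference 2.95 ± 0.30, adjusted p = 5.5e-05) in LSFF and Col4a2 was 4.42-fold higher (log2 difference 2.14 ± 0.34, adjusted p = 0.0021), while Col4a5 was 2.73-fold lower (log2 difference -1.45 ± 0.30, adjusted p = 0.0094). The brighter Col4a6 probe was 2.32-fold lower (log2 difference -1.22 ± 0.35, adjusted p = 0.04), and Col16a1 was 3.59-fold lower (log2 difference -1.84 ± 0.50, adjusted p = 0.032). Col5a1 (log2 difference -0.65 ± 0.45, adjusted p = 0.37), Col5a3 (log2 difference 0.02 ± 0.72, adjusted p = 0.99), Col7a1 (log2 difference -0.23 ± 0.25, adjusted p = 0.6) and Col18a1 (log2 difference 0.16 ± 0.58, adjusted p = 0.89) were not called. With the slide as a block, which other groups that span slides allow, 10 collagens were called, where 6.29% of all genes were. Col4a1 remained higher (3.20 ± 0.37, adjusted p = 0.00051) and Col3a1 lower (-5.68 ± 0.55, adjusted p = 0.00016), while Col1a2 (-1.93 ± 0.57, adjusted p = 0.058), Col4a5, Col4a6 and Col16a1 were not called. Without any 1 LIF serum array, Col16a1 (-2.01 to -1.68) and Col4a6 (-1.29 to -1.14) were not called. Col1a2 was not called without array 1, 3 or 4 (-4.05 to -3.79), nor Col4a5 without array 1 or 3 (-1.12 and -1.16).

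**Figure D3:**
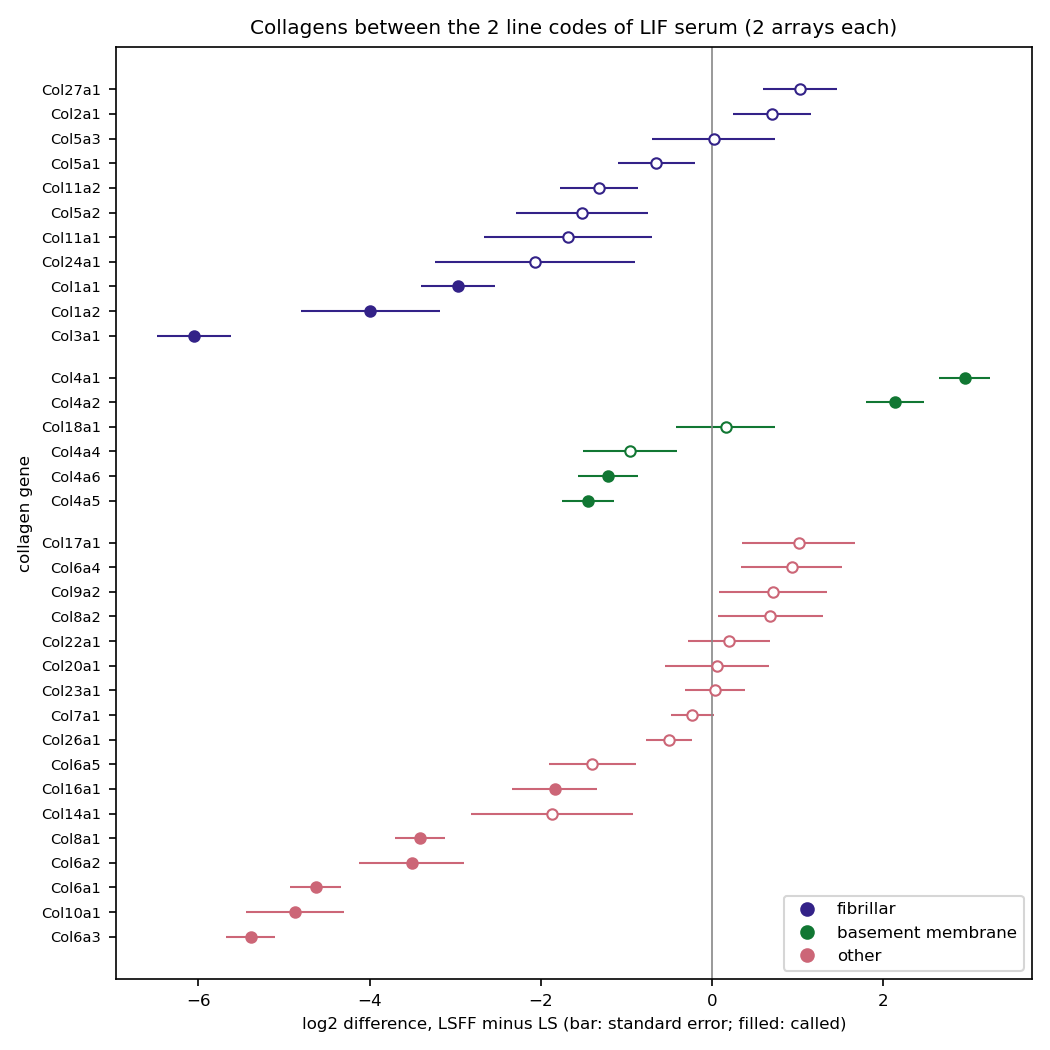
Log2 difference between the LSFF and the LS arrays of LIF serum (x axis, 2 arrays each, bar 1 standard error) for 34 collagens (y axis, by class), filled where called. Col3a1, Col6a3, Col10a1 and Col6a1 lie farthest to the left and Col4a1 and Col4a2 farthest to the right.

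Some markers of other cell types also differed between the codes. Of 12 fibroblast markers that are not collagens, 11 were tested (Tcf21 was not above background), and 7 of the 11 were lower in LSFF, where 5.44% of all genes were lower. The mean level of the list was -0.08 and -0.29 on the LS arrays and -3.40 and -3.37 on the LSFF arrays, against 1.35 to 2.18 in mEpiSC and -5.59 to -4.57 in the ground states. All 11 were above background on every mEpiSC array, whereas 2 to 6 were in the ground states, where Twist2, Prrx1, Postn and Lum were above it on no array. Between groups, 9 of 11 were higher in mEpiSC than in LIF serum, where 18% of all genes were higher. In each ground state 8 of 11 were lower than in LIF serum, where 12.1% (2i) and 13.3% (2iSB) of all genes were lower. Against mEpiSC 11 of 11 were lower in each, where 20.6% (2i) and 20.1% (2iSB) of all genes were lower.

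Of 10 primitive and parietal endoderm markers, 9 were tested, and 3 were higher in LSFF: Sox17 (3.58), and the laminin chains Lama1 (1.62) and Lamb1 (1.44), on the log2 scale. None was called lower, and 2.99% of all genes were higher in LSFF. The mean of that list was -0.21 and -0.03 on the LS arrays and 1.18 and 1.28 on the LSFF arrays. In mEpiSC it ran from 0.40 to 1.86, and in the ground states from -1.81 to -0.60. The members did not all move alike between groups: 3 of the 9 were higher and 1 lower in mEpiSC than in LIF serum. Lama1 had means of 4.87 in LIF serum, -0.28 in mEpiSC, 4.34 in 2i and 4.04 in 2iSB, an order unlike that of Col4a1. Of 5 contractile genes of smooth muscle, none was called between the codes and all 5 were lower in each ground state than in LIF serum and in mEpiSC. The share of all genes lower in these ground state comparisons ran from 12.1% to 20.6%. Whether cells of these kinds took part in the collagen differences was not tested.

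**Figure D4:**
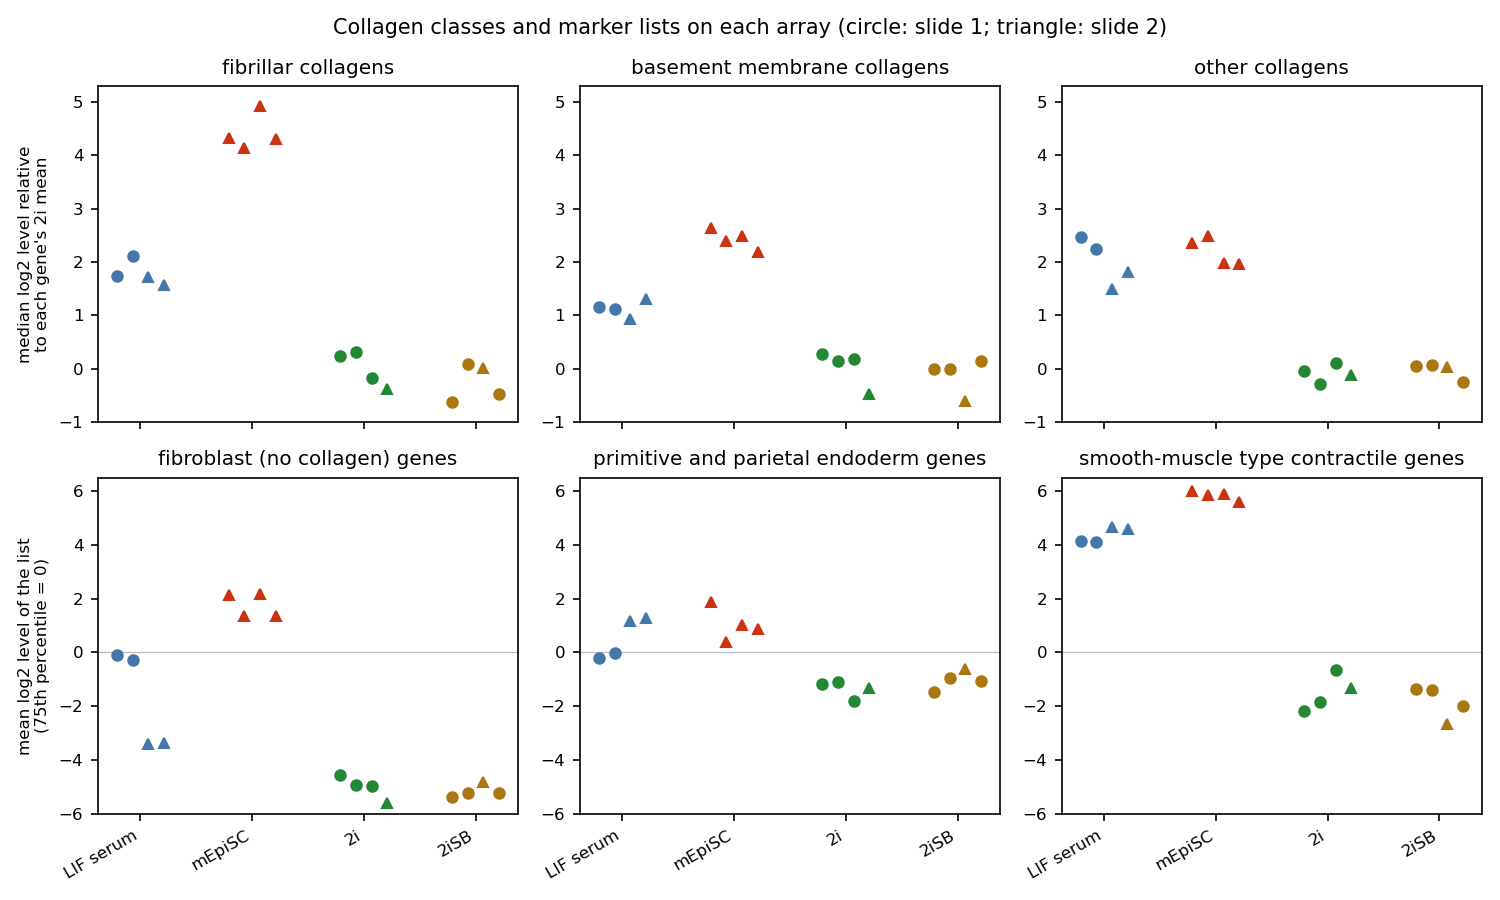
Top row, the median over each collagen class of the log2 level on each array, relative to each gene's 2i mean; bottom row, the mean log2 level of 3 marker lists on the same arrays, by group, with circles for slide 1 and triangles for slide 2. The fibrillar medians of mEpiSC, 4.14 to 4.93, are the highest of the top row, and the fibroblast list splits LIF serum into arrays near 0 and arrays near -3.40.

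The 2iSB and 2i groups were compared to ask what SB431542 in the medium went with. In this limma fit no collagen was called, and 1 of 34 had an unadjusted p under 0.05. That gene was Col7a1, whose difference was 0.54 on the log2 scale (95% confidence interval 0.15 to 0.93, unadjusted p = 0.0095, adjusted p = 0.52 by limma), and whose 2iSB arrays were all above the 2i arrays. A p that misses the threshold does not show that the media act alike, so the intervals matter. For Col6a3, Col6a4, Col6a5, Col8a1, Col10a1 and Col27a1, no array of either medium was above background at the probe used, and their intervals set no limit. Of the other 28 genes, the intervals of 10 lay wholly within 2-fold and those of 18 reached beyond it, and the distance from the difference to either bound ran from 0.39 to 2.47 on the log2 scale with a median of 0.98. The largest differences in each direction were -0.92 for Col1a1 and 0.55 for Col16a1 and Col17a1. On slide 1 alone, with 3 arrays per group, none was called either, while on slide 2, with 1 array each assumed to vary like the other groups, 7 were called, 5 higher and 2 lower, where 14.4% of all genes were.

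**Figure D5:**
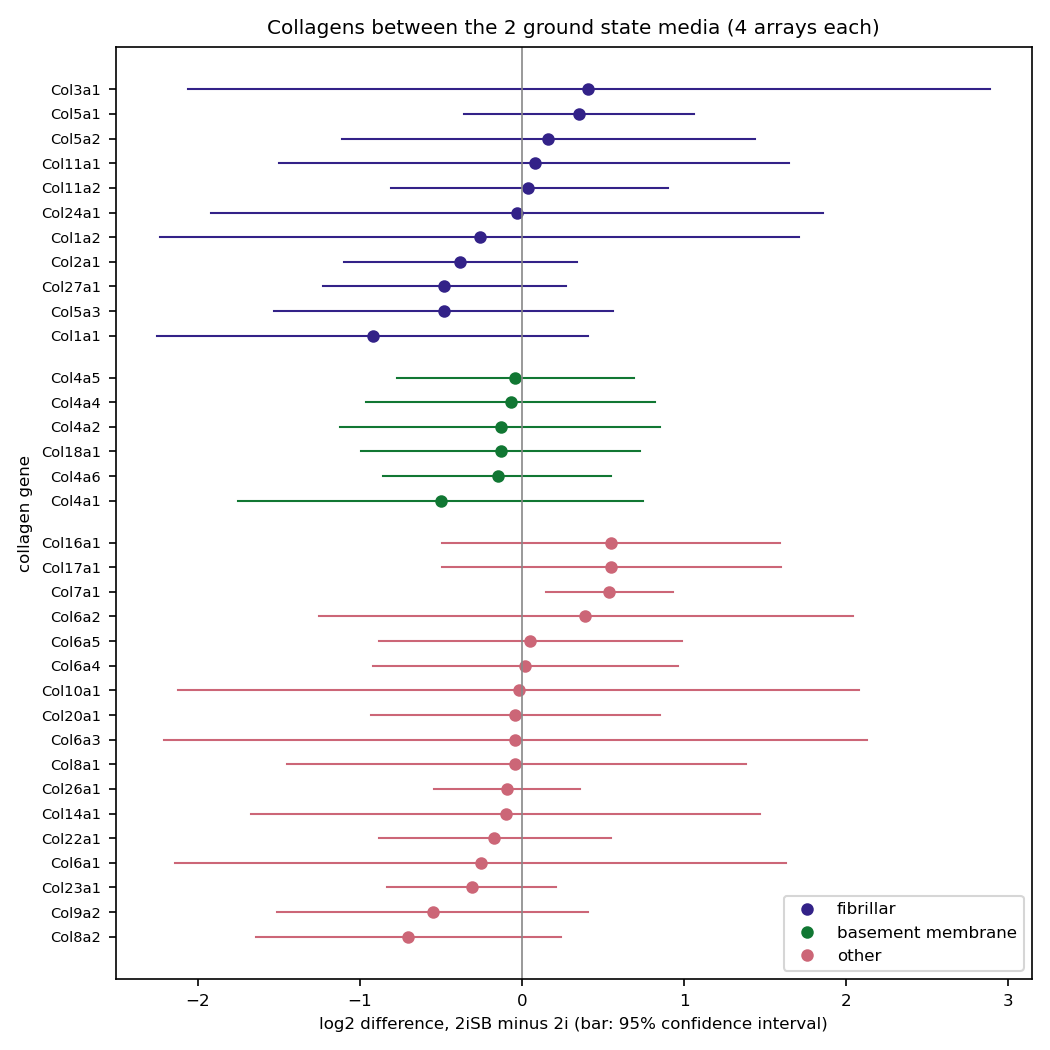
Log2 difference between 2iSB and 2i (x axis, 4 arrays each) with its 95% confidence interval for each of 34 collagens (y axis, by class). Col7a1 is the gene whose interval excludes 0, and the interval of Col3a1, from -2.06 to 2.89, is the widest.

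Collagen chains need other proteins to fold, be cut, be crosslinked and be bound, and 42 of 46 such partner genes were tested. In mEpiSC, 17 of the 42 were higher than in LIF serum and none was lower, where 18% of all genes tested were higher and 15.6% lower. Among modification and folding genes 6 of 20 were higher, led by Serpinh1, the collagen chaperone HSP47 (2.50 ± 0.23, adjusted p = 4.4e-07). Of the crosslinking genes 5 of 6 were higher, led by the lysyl oxidase Lox (4.77 ± 1.31, adjusted p = 0.0068). Lox was above background on 2 of 4 LIF serum arrays, which ran from -6.70 to -0.08, while its mEpiSC mean was 1.36. Its difference thus depended on the low LIF serum arrays. Of the fibril-binding proteoglycans 2 of 4 were higher, led by Lum (6.65 ± 0.85, adjusted p = 1.3e-05), which is also on the fibroblast list. Lum too was above background on 2 of 4 LIF serum arrays. In extracellular processing 1 of 6 was higher, the procollagen N-proteinase Adamts2 (2.49 ± 0.74, adjusted p = 0.011), and among receptors 3 of 6, led by Ddr2 (1.94 ± 0.51, adjusted p = 0.0049).

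In 2i, 14 of the 42 partner genes were lower and 3 higher than in LIF serum, where 12.1% of all genes were lower and 6.26% higher. In 2iSB, 15 were lower and none higher, where 13.3% of all genes were lower and 6.82% higher. Against mEpiSC, 24 were lower and 2 higher in 2i, where 20.6% of all genes were lower and 16.9% higher. For 2iSB, 23 were lower and 1 higher, where 20.1% of all genes were lower and 16.2% higher. Serpinh1 was lower in 2i than in mEpiSC (-4.01 ± 0.23, adjusted p = 1.6e-09) and than in LIF serum (-1.51 ± 0.23, adjusted p = 0.00022). Fkbp10, a prolyl isomerase that acts on procollagen, led its role in both (-5.27 ± 0.29, adjusted p = 1.3e-09, and -3.90 ± 0.29, adjusted p = 6.2e-07). All 6 crosslinking genes were lower in 2i than in mEpiSC, Lox among them (fitted difference -7.90 ± 1.31, adjusted p = 0.00012), with 1 of 4 2i arrays above background for Lox. The prolyl 4-hydroxylase subunits P4ha1 (-1.07 ± 0.34, adjusted p = 0.027) and P4ha2 (-2.11 ± 0.45, adjusted p = 0.0028) were lower in 2i than in LIF serum. Plod2, which hydroxylates lysine in the ends of the chains, was lower in 2i than in mEpiSC (-1.11 ± 0.30, adjusted p = 0.0052) and did not pass against LIF serum (-0.60 ± 0.30, adjusted p = 0.14). Pcolce2, an enhancer of procollagen C-proteinase, went the other way and was higher in 2i than in LIF serum (1.64 ± 0.32, adjusted p = 0.0014) and than in mEpiSC (2.34 ± 0.32, adjusted p = 1.6e-05). The collagen-binding integrin Itga11 had the largest receptor difference between 2i and LIF serum (fitted difference -5.91 ± 0.92, adjusted p = 0.00029). It was above background on 1 of 4 2i arrays, and its LIF serum arrays ran from -1.77 to 2.67.

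Between LSFF and LS, 12 of the 42 partner genes were lower and 2 higher, where 5.44% of all genes were lower and 2.99% higher. All 4 fibril-binding proteoglycans were lower, led by Fmod (-4.56 ± 0.46, adjusted p = 5.5e-05), and Lox fell by 6.54. Fmod and Lox were each above background on 2 of the 4 LIF serum arrays, so these are fitted differences. No partner gene was called between 2iSB and 2i, where 0.0838% of all genes were.

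Scaling moved the baseline of some comparisons. With each array centred on its median in place of the 75th percentile, the median over all genes of mEpiSC minus LIF serum was 0.61 and not 0.07, and that of LSFF minus LS was 0.52 and not 0.07. The share of all calls that were higher rose from 53.4% to 75.9% and from 35.4% to 71.4%. For 2i and 2iSB minus mEpiSC, the medians moved to -0.58 and -0.56 and the shares of higher calls fell from 45% to 25.1% and from 44.6% to 25.5%. With quantile normalization the share in LSFF minus LS was 46%. No called collagen changed direction under these scalings. With normexp in place of the processed signal, 19 of 128 called pairs of collagen and comparison lost the call and none changed direction. These lay in Col17a1 with 4, Col6a5 and Col4a5 with 3 each, Col20a1, Col27a1 and Col8a2 with 2 each, and Col6a4, Col18a1 and Col4a6 with 1 each. Col18a1 and the probe used for Col4a6 were above background on all 16 arrays. In fits of only the groups compared, calls against LIF serum were lost for Col4a2 (1.26) and Col6a3 (3.46) in mEpiSC, and for Col3a1 (-4.37 and -3.95), Col6a2 (-2.79 and -2.40) and Col10a1 (-3.07 and -3.09) in 2i and 2iSB.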

How the data were processed

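RNA from 16 cell lines was hybridised to 1-colour Agilent arrays on 2 slides. The deposited scanner files give, per the file headers, signal intensity from Feature Extraction 10.7.1.1, with 62976 spots per array and a flag for signals well above background. The authors also deposited a table of log2 values, made per the submitters' processing notes with Agilent Feature Extraction and limma, whose scale matched the scanner files (lowest correlation with them 0.989), and this table was an alternative. No coordinate of the array design was used.

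The log2 of the processed signal less each array's 75th percentile was averaged over spots of a probe, control spots and outlier-flagged spots left out. Of 55681 probes, 27656 were named through RefSeq accessions, giving 20972 genes, and 15521 had a probe that passed this flag throughout at least 1 group. The probe with the highest mean signal stood for a gene. limma 3.58.1 in R 4.3.3 fitted 4 group means over all 16 arrays (lmFit and eBayes), with Benjamini-Hochberg adjustment over all genes of a comparison, and a call needed an adjusted p under 0.05 and at least 2-fold. The LSFF and LS arrays were compared in a fit with 5 groups. Errors are SE for differences and SD for levels. Where no probe of a gene was above background on any array of a group, the fold is a lower bound against the lowest signal well above background per array (the floor), or the probe's own where higher, and none is given where it is under 1. Where some arrays were above it, the fold is the fitted one, and an alternative added after seeing the data raised signals not above background to the floor. On simulated data for mEpiSC minus LIF serum with 200 of 15521 genes changed by 2 on the log2 scale, 85% were recovered with 5 false calls. The simulated noise was independent, had the same spread in every group for a gene, and held no slide or line code. These rates therefore check the code of the fit and are not error rates of the real comparison.

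All collagens may be named, and per-array values are given for those called in at least 1 of 6 comparisons. Partner genes named are the largest change of a role, Serpinh1, P4ha1, P4ha2, Plod2 and Lox. Members, classes, marker lists and partner lists were chosen with earlier results of these data known. The planned normexp alternative used the median signal in place of the mean signal. Alternatives were other scalings, background corrections, filters, probes, slides and subsets of arrays, the passage number, a replicate block and the deposited table. The labels do not say that replicate numbers pair the lines, and the main fit assumed no pairing.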

Additional observations from a re-analysis of the deposited data

Results flagged for a closer look

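In 84 sets of 4 arrays, a collagen's highest or lowest array was checked for standing apart from the other 3, and 5 did, where chance alone would give 4.2. Col22a1 was -3.90 on 2iSB array 1, with the other 3 from -2.65 to -2.40. Col4a6 was -3.11 on 2iSB array 3, with the others from -2.22 to -2.19, and this is the group's slide 2 array. Col5a3 was 3.21 on mEpiSC array 3, against 2.28 to 2.41. Col7a1 was 4.98 on the same mEpiSC array, against 4.31 to 4.41. Col7a1 was also -0.97 on 2iSB array 4, against -1.63 to -1.52.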

How the results depend on the processing

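The calls were repeated under other scalings, background corrections, filters, probes, slides and subsets of arrays and on the authors' deposited log2 values. Over 128 called pairs of gene and comparison, 2698 alternative values were computed, of which 166 kept the direction without the call and 1 reversed: Col10a1 in 2iSB minus LIF serum was 0.54 on slide 2 alone (adjusted p = 0.45). With only probes well above background on all arrays, 14 collagens were tested and 9, 10, 9, 12 and 12 were called in mEpiSC minus LIF serum, 2i minus LIF serum, 2iSB minus LIF serum, 2i minus mEpiSC and 2iSB minus mEpiSC, and 5 in LSFF minus LS, since fewer genes were tested; of all genes so tested, 27%, 13.6%, 14.8%, 29.3%, 28.1% and 6.97% were called. Between 2iSB and 2i, 7 were called on slide 2 alone, with 1 array each, assumed to vary like the other groups, where 14.4% of all genes were called. Leaving out each array in turn gave 20 to 22, 20 to 22, 19 to 23, 24 to 26, 23 to 27 and 0 to 0 calls in these comparisons. In the same order, the shares of all genes called were 32% to 33.3%, 15.5% to 19.4%, 17.2% to 22.1%, 36.1% to 38.5%, 35% to 37.6% and 0.0709% to 0.174%. No such count is given for LSFF minus LS, where 1 array would remain for a code. Raising signals not above background to the floor, chosen after seeing the data, gave 21, 21, 23, 24, 25 and 0 calls. There 32.6%, 17.1%, 19.4%, 36.3%, 35.7% and 0.142% of all genes were called. The replicate number as a block gave 21, 21, 22, 24, 25 and 0 calls, where 33.4%, 17.6%, 19.6%, 37.4%, 36.3% and 0.0515% of all genes were called. Deviations from the group mean correlated from -0.59 to 0.40 between same-numbered lines of different groups (7 of 24 over 0.1). The slide of an array does not follow its replicate number, so these correlations cannot show whether the numbers pair the lines. Signal near background limits the low levels in the ground states.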
